A study of Rattus norvegicus with 4 samples.

Results

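Proliferating cells were taken from the anterior pituitary of the rat as the cells with at least 1 UMI in 5 or more of 12 genes of the late cell cycle, namely *Birc5*, *Ccna2*, *Ccnb1*, *Cdc20*, *Cdca3*, *Cdca8*, *Cdk1*, *Cdkn3*, *Cenpf*, *Cenpw*, *Ckap2* and *Hmmr*. A UMI, a unique molecular identifier, stands for 1 captured RNA molecule. The rule was met by 175 of 7861 cells, or 2.23% (95% exact interval 1.91 to 2.58%, counting error only). These 175 are called cycling cells and all others non-cycling. They were selected on the values of the 12 genes, so the levels of these genes describe the selection and are not tested.

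Single-cell transcriptomes of dispersed anterior pituitaries of Sprague Dawley rats were measured with the 3' chemistry of 10X Genomics. The female group was 1 pool of 4 pituitaries of rats in diestrus at postnatal day 44, and the male group was 1 pool of 4 pituitaries at postnatal day 59. Neither group was treated. The labels do not tie the lane numbers to a sex, and the lanes were given a sex by the total number of cells of each sex in the study's methods, to which only this division of the lanes adds up. Each pool was loaded on 2 lanes, so lanes are technical replicates: p-values below measure the spread between lanes and not between animals, and sex cannot be told apart from pool and age. The female lanes held 1868 and 1861 cells with 18955509 and 20312999 UMIs, and the male lanes 2047 and 2085 cells with 23425817 and 24048021 UMIs. Of the 7831 distinct barcode sequences, 30 occurred in more than 1 lane, which concerned 60 cells, 1 of them cycling.

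A cell that divides first copies its DNA in S phase, with helicases, polymerases and a supply of nucleotides, and then condenses and separates its chromosomes in mitosis. The 12 genes act mostly in the second step. *Cdk1* encodes the kinase of mitotic entry and *Ccna2* and *Ccnb1* its cyclin partners, *Birc5* and *Cdca8* encode parts of the chromosomal passenger complex, *Cenpf* and *Cenpw* kinetochore proteins, *Hmmr* and *Ckap2* proteins of the spindle, *Cdca3* a protein of mitotic entry, *Cdkn3* a phosphatase that acts on cyclin-dependent kinases, and *Cdc20* an activator of the ubiquitin ligase that ends mitosis. In the anterior pituitary, hormone-producing cells and the stem-cell-like folliculostellate cells (FSC) are both known to divide in the postnatal gland.

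Genes transcribed late in the cell cycle are known for 2 promoter elements, the CCAAT box bound by NF-Y and the CHR element TTTGAA bound by the DREAM and MMB complexes. Therefore the 250 bases upstream of each annotated start in RefSeq (assembly GRCr8) were searched on both strands for these letters, with 11 of the 12 genes matched and *Ccna2* not matched. CCAAT was in 10 of 11 (90.9%) against 34.2% of all 27457 promoters, and TTTGAA in 7 of 11 (63.6%) against 16.1%. Both were in 7 of 11 (63.6%) against 5.78%, and 8 of 11 held at least 2 CCAAT boxes against 9.73% of all. TATAAA was in 0 of 11 against 13.1%. A match describes the letters and not a bound site, and the letters of both elements overlap by 1 base in *Cdca8*. The last 120 bases before the start are shown for 5 genes, in the direction of transcription, with CCAAT (or its reverse complement ATTGG) and TTTGAA (or TTCAAA) in capitals. *Cdk1* (chr20:19265173-19265292 (+ strand)), *Hmmr* (chr10:25665216-25665335 (- strand)), *Cdc20* (chr5:137255800-137255919 (- strand)) and *Cdca8* (chr5:142483200-142483319 (- strand)) hold both elements, and *Cenpw* (chr1:29353850-29353969 (+ strand)) neither.
Cdk1: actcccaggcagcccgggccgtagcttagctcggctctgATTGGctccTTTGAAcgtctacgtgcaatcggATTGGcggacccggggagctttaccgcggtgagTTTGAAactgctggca
Hmmr: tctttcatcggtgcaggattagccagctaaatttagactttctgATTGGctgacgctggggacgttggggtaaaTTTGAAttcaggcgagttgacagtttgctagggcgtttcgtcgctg
Cdc20: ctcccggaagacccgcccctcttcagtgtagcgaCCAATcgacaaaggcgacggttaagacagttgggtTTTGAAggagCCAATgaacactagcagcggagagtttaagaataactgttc
Cdca8: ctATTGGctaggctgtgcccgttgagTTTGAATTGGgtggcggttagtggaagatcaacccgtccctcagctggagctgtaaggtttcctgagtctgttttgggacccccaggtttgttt
Cenpw: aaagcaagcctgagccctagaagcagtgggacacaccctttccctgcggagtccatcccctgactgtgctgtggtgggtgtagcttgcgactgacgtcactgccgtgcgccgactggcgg
Of the other genes of mitosis on the lists used below, 72 of 90 were matched, with TTTGAA in 37.5% and CCAAT in 63.9%. Of the DNA replication genes, 52 of 64 were matched, with TTTGAA in 11.5% and CCAAT in 55.8%.

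The number of rule genes per cell was spread over the whole range. No rule gene was detected in 6604 cells, 1 in 926 and 2 in 111, whereas 55 cells held all 12. Near the threshold, 27 cells had 3 rule genes, 18 had 4, 18 had 5, 20 had 6 and 8 had 7, so that 46 of the 175 cycling cells had 5 to 7. The 18 cells just outside the rule had a median of 5.5 UMIs over the 12 genes and the 18 just inside a median of 11. *Mki67*, which the rule did not use, was detected in 4 of the former and 10 of the latter, and *Top2a* in 5 and 9. With all identities pooled, cycling cells had a median of 15603 UMIs and 3580 genes against 8758.5 UMIs and 2629.5 genes in the others, and a median mitochondrial share of 3.39% against 4.12%. The identities differ in depth, and a rule that asks for a UMI in 5 genes is met more easily by deep cells.

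**Figure D1:**
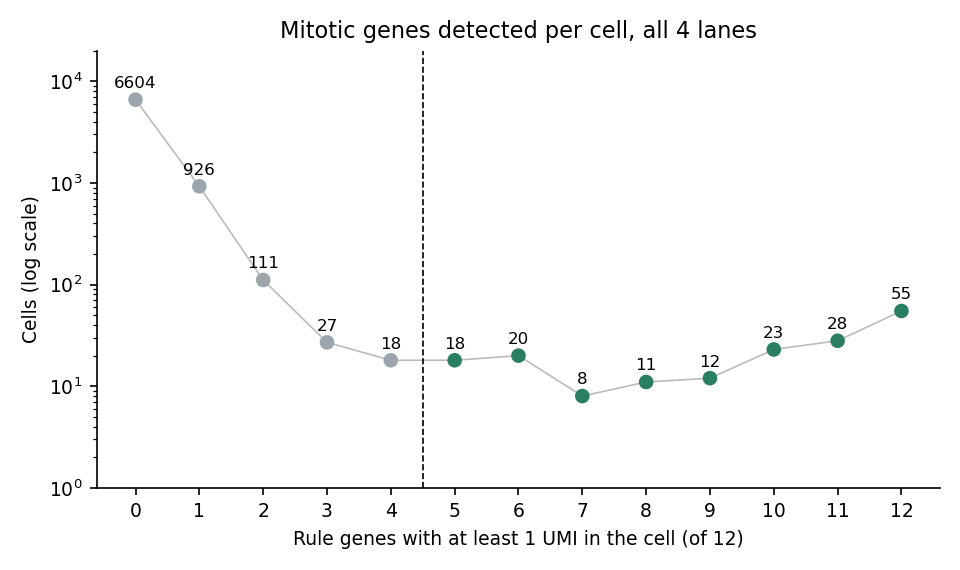
Number of cells (log axis) against the number of the 12 rule genes with at least 1 UMI in a cell, from 0 to 12. The count is lowest at 7 genes (8 cells), 55 cells hold all 12, and the dashed line marks the rule of at least 5 genes.

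Genes outside the rule were read next. *Mki67*, *Top2a*, *Pttg1*, *Ube2c* and *Tpx2* are on the study's list of 39 cell cycle genes. The study picked that list from these same data, by expression in proliferating cells. Most rule genes are on it too, so these genes are no independent check of the label. *Mki67*, the antigen used to count proliferating cells, was found in 84.0% of the cycling cells and 2.39% of the others, and its level was 184, 207, 207 and 180.4 CPM (UMIs of a gene relative to all UMIs of the cells summed, 10000 CPM being 1% of them) in the cycling cells of female lanes 1 and 2 and male lanes 1 and 2, against 1.65 to 2.85 in the other cells. *Top2a*, which untangles DNA before mitosis, was found in 72.6% of the cycling cells and 0.403% of the others. *Pttg1*, which encodes securin, was found in 90.9% of the cycling cells and 3.38% of the others. *Ube2c* and *Tpx2*, of mitotic exit and spindle assembly, were found in 79.4% and 80.0% of the cycling cells. Among genes of S phase the shares varied. *Pcna*, the sliding clamp of replication, was found in 75.4% of the cycling cells and 43.9% of the others, and *Tyms*, of thymidylate synthesis, in 66.3% of the cycling cells and 14.2% of the others. *Rrm2*, of ribonucleotide reductase, was found in 21.7% of the cycling and 0.013% of the other cells. In all 4 lanes, the levels of *Mki67*, *Top2a* and *Pttg1* in cycling cells were above those of the other cells. Shares of cells with a UMI rise with depth, and free RNA adds to them.

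Each cell was given an identity by the marker rules of the study, rebuilt here. Of the cycling cells, 51 were FSC, 45 somatotrophs (S, which make growth hormone), 38 lactotrophs (L, which make prolactin), 16 leukocytes (Le), 8 endothelial cells (EC), 5 corticotrophs (C), 2 melanotrophs, 1 thyrotroph, 1 pericyte and 1 erythrocyte. The remaining 7 met the rules of 2 types. The Le had 8.5 rule genes in the median and the EC 8. None of 264 gonadotrophs (G) was cycling, which allows a share of up to 1.14% (3 counts of the total, with an exact upper limit of 1.39%), and none of the 60 posterior pituitary cells was. Thus S, L and FSC together made up 134 of the 175.

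With the sexes pooled, the share of cycling cells was highest in L (38 of 528 cells, 7.20%, 95% exact interval 5.14 to 9.74%) and lower in S (45 of 2067 cells, 2.18%, 95% exact interval 1.59 to 2.90%) and in FSC (51 of 2525 cells, 2.02%, 95% exact interval 1.51 to 2.65%). It was 2.69% in Le (16 of 594), 5.33% in EC (8 of 150) and 0.584% in C (5 of 856). The intervals of S, FSC and Le overlap, and that of L lies above those of S and FSC. In females the share was 13.4% in L and 9.41% in EC, and in female lane 2 EC (13.2%) lay above L. In males the share in L was 1.78% (5 of 281), below Le (3.18%), FSC (2.12%) and S (1.82%). In C the share was 0.252% (2 of 794) among cells that passed quality control and 0.120% (1 of 832) with each cell thinned to 4000 UMIs, and in EC 3.05% (4 of 131) after thinning. Median UMIs of cycling and non-cycling cells were 16112 and 13414.5 in S and 13271 and 6825 in FSC, and in L 16121 and 16169 in female lane 1 and 28659 and 19432.5 in female lane 2. Cells of 1 pool are not replicates, so these intervals cover counting error only. By lane, L had 16.03% and 10.3% cycling cells in females and 2.098% and 1.45% in males. S had 2.85% and 2.32% in females and 1.69% and 1.94% in males. FSC had 1.98% and 1.87% in females and 2.74% and 1.53% in males, so the lanes of the 2 sexes overlap in FSC and do not in L and S. All 8 cycling EC were female (8 of 85, with 0 of 65 in males, which allows up to 4.62% by 3 counts of the total, with an exact upper limit of 5.52%). The cycling Le were 6 female and 10 male cells, 8 of the latter in male lane 1.

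**Figure D2:**
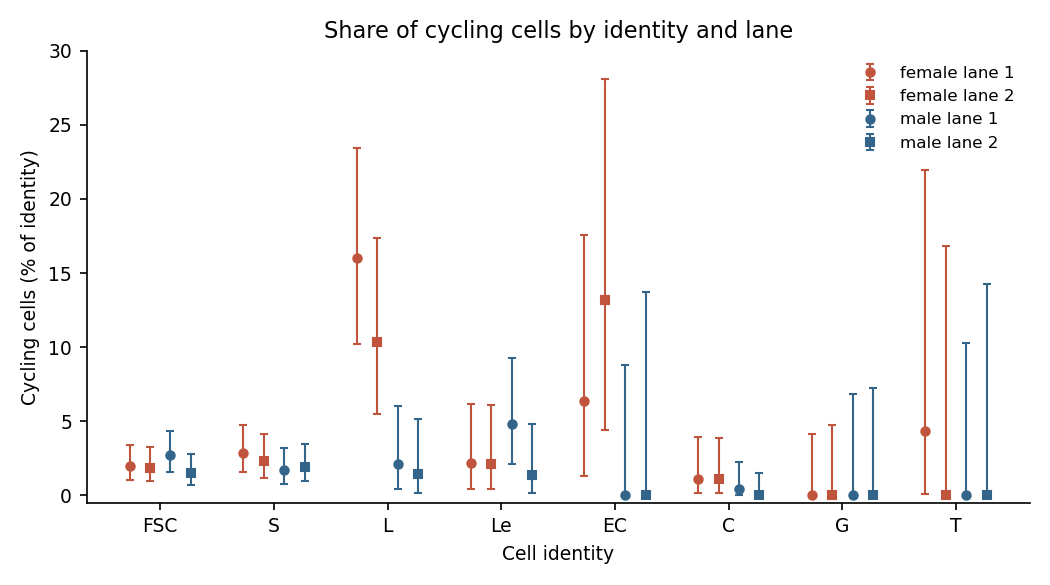
Share of cycling cells in percent in 8 identities (FSC, S, L, Le, EC, C, G and T, thyrotrophs), with 1 point per lane coloured by sex. Vertical lines are 95% exact intervals over cells (counting error only), and the female lanes of L at 16.03% and 10.3% lie above its male lanes at 2.098% and 1.45%.

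Over all cells the cycling share was 3.21% and 2.53% in the female lanes and 1.91% and 1.39% in the male lanes. The female mean was 1.22 percentage points above the male mean (exact permutation test over lanes, two-sided, p = 0.333, n = 2 lanes per sex). This is the smallest p that 2 lanes against 2 allow. The same difference was 11.4 points in L (exact p = 0.333), 0.771 in S (exact p = 0.333) and -0.212 in FSC (exact p = 1), and the 4 comparisons were not adjusted since none can pass. Median UMIs per cell were lower in the female than in the male lanes (7971 and 8559 against 9413 and 9339). With each cell thinned to 4000 UMIs before the rule was applied, the share in L was 11.1% in females and 1.14% in males, and 2.22% and 1.16% over all cells. In FSC the difference changed sign, to 0.288 points (exact p = 0.667).

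Among themselves the cycling cells differed in how far replication or mitosis transcripts prevailed. UMIs of 70 replication and nucleotide genes made up a median of 36.2 per 10000 UMIs in cycling cells (4.26 to 162), and of 90 mitosis genes a median of 105 (10.5 to 335). The medians of the other cells were 7.37 and 11.8. Replication exceeded mitosis in 30 of the 175 cells (17.1%), and in 1367 of the 7686 others (17.8%). The 30 were 10 of 45 S, 3 of 38 L, 7 of 51 FSC, 3 of 16 Le, 3 of 8 EC, 3 of 5 C and 1 of the 7 cells that met the rules of 2 types. The rule asks for late genes, so cells in early S phase can lie outside it. After thinning to 4000 UMIs, cycling cells had a median of 10 replication genes with a UMI, and 91 of 7272 non-cycling cells reached that number. They were 35 FSC, 15 S, 13 Le, 10 EC, 8 L, 4 C and 6 of other or mixed identity, and their median number of mitosis genes was 6 against 25 in the cycling cells.

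**Figure D3:**
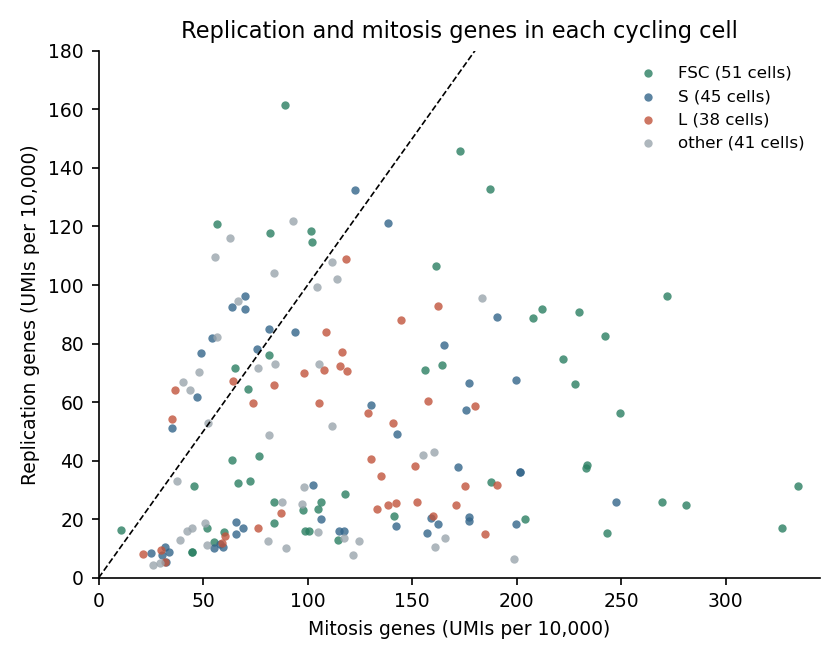
UMIs of replication genes against UMIs of mitosis genes, both per 10000 UMIs of the cell, with 1 point for each of the 175 cycling cells, coloured by identity. The dashed line marks equal values, and the 30 cells above it have more replication than mitosis UMIs.

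Cycling cells were then compared with non-cycling cells of the same identity, in UMI sums per lane of cells that passed quality control. These were 39 cycling S (13, 10, 8 and 8 per lane), 31 L (19, 9, 2 and 1) and 38 FSC (8, 8, 14 and 8), against 1851, 455 and 2279 non-cycling cells. The 2 male lanes of L held under 3 cycling cells and were left out of the fit, so the effect in L rests on the 2 female lanes. edgeR's quasi-likelihood test was applied to 11852 genes, 11840 of them outside the rule. The scaling changed the result: over all genes the median effect on the log2 scale was -0.38 with TMM factors, 0.02 with library size alone and -0.16 with DESeq2's size factors. The genes called by TMM alone, 1130 higher and 2414 lower in the mean over S, L and FSC, became 1938 and 747 with library size and 1247 and 1394 with DESeq2. Hence a gene is said to have risen or fallen below only if its adjusted p was under 0.05 with the same sign under all 3 scalings, a choice made after seeing the data. Log2 fold changes (± SE) are given relative to the median of all genes tested, which was -0.23 in S, -0.31 in L and -0.36 in FSC with TMM. The adjusted p of edgeR printed beside them tests the TMM fold change before this shift, so for a gene that fell it is smaller than one for the shifted value would be, and for a gene that rose larger. With library size alone the median was 0.08 in S, 0.13 in L and 0.05 in FSC. For genes with few or no UMIs in the non-cycling cells, a fitted fold change, and a median over such genes, depends on edgeR's prior count and is not a measured size.

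By this rule 1111 genes rose (9.38% of those tested) and 729 fell (6.16%) in the mean over the 3 identities. In S, 834 rose (7.04%) and 275 fell (2.32%). In L, 513 rose (4.33%) and 96 fell (0.811%). In FSC, 834 rose (7.04%) and 642 fell (5.42%). These shares are the background for the lists below, which were chosen with earlier results of these data known. Counts for a list are therefore descriptions.

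Genes of the machinery of division were higher, and since cells were chosen by such genes no p is given for it. In the mean contrast 37 of 37 genes of the spindle and its motors were higher (median log2 fold change 6.92), 31 of 32 of the kinetochore and checkpoint (6.13), 16 of 20 of mitotic exit (3.49) and 18 of 19 of chromosome structure (3.69). The median of all genes is 0 on this scale. *Top2a* was at 151 and 152 CPM in the female lanes and 80.4 and 336 in the male lanes of cycling S, against 0.201, 0.381, 0.134 and 0.123 in non-cycling S. In cycling FSC it was at 460.1 CPM against 0.700, and *Mki67* at 423 against 1.78. Of the 12 rule genes, the mean log2 fold change ran from 7.01 (*Hmmr*) to 9.65 (*Cdc20*). It was 7.57 in *Ccnb1*, 7.61 in *Cenpw*, 7.63 in *Cdkn3*, 7.64 in *Cdca8*, 7.81 in *Birc5*, 7.96 in *Cdk1*, 7.99 in *Ckap2*, 8.75 in *Cdca3*, 9.18 in *Ccna2* and 9.36 in *Cenpf*. Outside the rule, *Pttg1* rose by 7.08. Others were nearly absent from non-cycling S, so that their UMIs are given. *Kif20a*, a motor of the central spindle, had 69 UMIs in cycling and 3 in non-cycling S, *Sgol2*, which guards centromere cohesion, 36 and 0, and *Ccnb2*, a mitotic cyclin, 42 and 0.

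Replication genes were also higher, 53 of 59 in the mean contrast with a median of 2.60. *Pcna* was at 275 and 400.3 CPM in the female lanes and 446 and 273 in the male lanes of cycling S, against 62.9, 56.9, 53.1 and 52.7 in non-cycling S, so all 4 cycling sums lay above all non-cycling sums. *Mcm2*, of the replicative helicase, was low at 10.8 and 36.4 CPM in the female lanes and 65.8 and 21.0 in the male lanes of cycling S, against 8.84, 10.7, 10.6 and 11.7 in non-cycling S, and the 2 states overlap. Of the nucleotide synthesis genes 12 of 22 were higher and 1 lower (*Nme1*), with *Tk1* (5.40), *Dctpp1* (4.4) and *Rrm2* (48 UMIs in the 175 cycling cells and 1 in all others) among the former. Of the factors of cell cycle transcription 10 of 22 were higher, among them *Foxm1* (5.57), which drives late genes, and the E2F repressors *E2f7* (19 UMIs in cycling and 9 in non-cycling FSC) and *E2f8* (23 and 8).

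The genes that gate entry into the cycle were less uniform. Of 19 G1 cyclins, kinases and inhibitors, 7 rose and 1 fell (*Cdk6*) in the mean contrast, where 9.38% of all genes tested rose and 6.16% fell. *Ccne1*, *Ccne2* and their kinase partner *Cdk2* rose (3.96 ± 0.42, 2.98 ± 0.35 and 3.08 ± 0.35), but the latter 2 were not called after thinning (edgeR adjusted p = 0.13 and 0.063). *Cdkn2c*, which encodes the CDK4/6 inhibitor p18, was at 184 and 188 CPM in the female lanes and 190.0 and 441 in the male lanes of cycling S, against 24.5, 29.7, 25.5 and 26.4 in non-cycling S. It was at 605 and 932 CPM in the female lanes and 656 and 440.3 in the male lanes of cycling FSC, against 96.5, 101, 101 and 103 in non-cycling FSC, and at 269 and 226 CPM in the female lanes of cycling L against 29.1 and 22.8 in non-cycling L. The states did not overlap in S, FSC or the female lanes of L, and the gene rose in all 3 (3.10 ± 0.19, edgeR adjusted p = 9.22e-48 in S, 3.05 in L and 2.61 in FSC). *Cdkn1b*, which encodes p27, rose in FSC, with 190.2 to 389 CPM over the lanes of cycling FSC against 99.1 to 117 in non-cycling FSC (1.21 ± 0.19, edgeR adjusted p = 6.73e-05). *Cdkn1c* (p57) rose in S on 21 UMIs (2.04 ± 0.41, edgeR adjusted p = 0.000168). In the mean contrast its adjusted p was 0.78 after thinning and 0.098 without female lane 2.

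*Cdkn1a* (p21) rose in FSC (27.2 to 170.4 CPM over the 4 lanes of cycling FSC and 12.5 to 19.1 in non-cycling FSC, 1.82 ± 0.41, edgeR adjusted p = 0.00279). *Cdkn2a* (p16) had 57 UMIs in cycling S at 54.0 to 147 CPM over the 4 lanes of cycling S and 34.2 to 48.8 in non-cycling S and was not called by all scalings, while its call in FSC rests on 3 UMIs. The D cyclins were not among the genes that rose. *Ccnd2* was at 28.8 and 0 CPM in the female lanes and 22.6 and 51.2 in the male lanes of cycling FSC, against 59.8, 64.5, 53.1 and 67.1 in non-cycling FSC, did not overlap between states and fell (-1.28 ± 0.36, edgeR adjusted p = 6.33e-05). *Ccnd1* in FSC was at 82.2 CPM against 147, and *Ccnd3* at 80.3 against 47.6, and neither was called.

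Of the chromatin genes 24 of 30 rose in the mean contrast, and of the tubulin genes 9 of 20, where 9.38% of all genes tested rose. The chromatin list made up 2.01% and 2.30% in the female lanes and 1.57% and 1.83% in the male lanes of all UMIs in cycling FSC and 0.489% in non-cycling FSC. In S it made up 1.16% against 0.260%. *Hmgb2*, a chromatin protein with HMG boxes, was at 685 and 667 CPM in the female lanes and 541 and 784 in the male lanes of cycling S, against 13.9, 12, 7.22 and 8.40 in non-cycling S (5.95 in S, 6.0 in L and 4.97 in FSC). *H2afx*, the histone variant phosphorylated at DNA breaks, rose by 3.92 in the mean contrast. Tubulin genes made up 1.95% of UMIs in cycling FSC against 0.407%. *Tubb6* (3.57) and *Tubb4b* (3.11) rose, and *Stmn1*, which encodes the tubulin-binding stathmin, was at 3791 and 5112 CPM in the female lanes and 3871 and 4075 in the male lanes of cycling FSC, against 212, 208, 228 and 222 in non-cycling FSC.

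In contrast, the hormone that defines each identity was lower in its cycling cells. In S, *Gh1*, growth hormone, was at 228171 and 178869 CPM in the female lanes and 272271 and 222200 in the male lanes of cycling S, against 277129, 291743, 312379 and 315496 in non-cycling S. No cycling sum reached any non-cycling sum, and *Gh1* fell by 0.51 ± 0.09 on the log2 scale relative to the median of all genes. The TMM fold change before the shift was -0.74 (edgeR adjusted p = 1.22e-13), and with library size alone it was -0.42 (edgeR adjusted p = 1.26e-07). With at least 4 rule genes in place of 5 the size was the same (-0.52) but the adjusted p was 0.064. The median share of a cell's UMIs from *Gh1* was 18.9% in the 23 female and 19.9% in the 16 male cycling S, against 25.98% and 31.4% in non-cycling S. In L, *Prl*, prolactin, was at 261308 and 221201 CPM in the female lanes of cycling L against 330008 and 322352 in non-cycling L and fell by 0.65 ± 0.13 (edgeR adjusted p = 6.84e-11). This call was lost when doublets and outlier cells were kept (adjusted p = 0.33). *Prl* took a median of 23.0% of UMIs in the 28 female cycling L and 33.4% in non-cycling ones, and 2.40, 2.70 and 16.9% in the 3 male cycling L, where the median of non-cycling L was 13.5%. Both genes were used to assign these identities, in both states alike.

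Hormone transcripts outside their own cell type give an upper level for free RNA. *Gh1* was at 2620.4 to 3419 CPM in the lanes of cycling FSC and 2472 to 4556 in non-cycling FSC, far below S. *Prl* in cycling S was at 1679 and 1019 in the female and 358 and 217 in the male lanes. *Pomc*, *Lhb*, *Cga* and *Tshb*, hormone genes of other types, were not called in S, L or FSC, and *Fshb* was too low to be tested. In cycling S, *Pomc* was at 379 CPM against 441, *Lhb* at 79.4 against 69.7, *Cga* at 117 against 254 and *Tshb* at 34.9 against 35.2.

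The transcription factors and receptors of the hormone cells were examined next. *Pou1f1*, the POU factor of S and L, was at 410.2 and 243 CPM in the female lanes and 468 and 189 in the male lanes of cycling S, against 293, 288, 327 and 321 in non-cycling S, and the 2 states overlapped. Of 32 tested genes of the Pit-1 lineage, 1 rose (*Six6*, 0.86) and 2 fell in S, 1 fell in L and 2 fell in FSC. Over all genes tested, 7.04% rose and 2.32% fell in S, 0.811% fell in L and 5.42% fell in FSC. The genes of the list that fell in S and L were *Wfdc1* (-1.09 ± 0.20) and *Ramp1* (-1.22 ± 0.26) in S and *Rbp4*, a retinol carrier, in L (-1.29 ± 0.26). *Ghrhr*, the receptor for GHRH, was at 10.8 and 30.3 CPM in the female lanes and 7.31 and 28.0 in the male lanes of cycling S, against 56.7, 55.0, 34.6 and 34.7 in non-cycling S on 12 cycling UMIs, each cycling lane being below each non-cycling one, and was not called by all scalings. In L, *Drd2*, the dopamine receptor, was at 19.2 and 27.8 CPM in the female lanes of cycling L against 50.5 and 47.8 in non-cycling L, and *Agtr1b*, an angiotensin II receptor, at 76.8 and 71.5 CPM in the female lanes of cycling L against 93.4 and 89.1 in non-cycling L, and neither was called. *Pitx1* was at 108 to 146 CPM over the 4 lanes of cycling S and 87.2 to 111 in non-cycling S and was not called in any identity. *Lhx3* was at 114 CPM in cycling and 88.7 in non-cycling FSC, and in cycling S it had 0 UMIs, where the non-cycling level was 3.33.

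Genes of the secretory pathway that changed were mostly lower. Of 28 secretory granule genes, 6 fell in S, 3 in L and 3 in FSC and none rose, with medians of -0.50, -0.47 and -0.58. Over all genes tested, 2.32% fell in S, 0.811% in L and 5.42% in FSC. The granule counts depended on the scaling, since with TMM alone 17 fell in S, 17 in L and 8 in FSC. The granule list made up 1.08% and 1.05% in the female lanes and 1.305% and 1.11% in the male lanes of UMIs in cycling S, against 1.305% and 1.31% in the female lanes and 1.61% and 1.61% in the male lanes of non-cycling S. *Caly*, a vesicle protein of neuroendocrine cells, was at 194 and 115 CPM in the female lanes and 183 and 168 in the male lanes of cycling S, against 491, 544, 349 and 332 in non-cycling S (-1.46 ± 0.17, edgeR adjusted p = 4.67e-20). *Rab3a*, the GTPase of regulated exocytosis, fell in S as well (-1.58 ± 0.26, edgeR adjusted p = 2.19e-10). Of 41 genes of endoplasmic reticulum translocation and folding, 5 fell in S and 6 in L with none rising. In FSC 2 rose (*Dnajb11* and *Creld2*) and 4 fell, where 7.04% of all genes tested rose. With TMM alone 19 fell in S, 25 in L and 10 in FSC. The list median in FSC was 0.14. In cycling FSC the list made up 0.895% and 0.866% of UMIs in the female lanes and 0.880% and 0.815% in the male lanes. The values in non-cycling FSC were 0.798%, 0.812%, 0.768% and 0.777%, lower in each lane. In S the share was higher in cycling cells in female lane 2 only (1.22% against 1.15%). *Xbp1*, the transcription factor of the unfolded protein response, was at 119 and 158 CPM in the female lanes and 153 and 119 in the male lanes of cycling S, against 221, 228, 229 and 228 in non-cycling S. It fell in S (-0.82 ± 0.18, edgeR adjusted p = 2.41e-07), L (-1.25) and FSC (-1.18). The chaperone gene *Calr* fell in all 3 as well (-1.17 in S, -0.86 in L and -0.81 in FSC), and *Dnajb9*, a cochaperone, in S (-1.11) and L (-1.44).

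In FSC part of the genes of their own identity fell. The study saw separate clusters of FSC in both sexes, which were pooled here. Their mix in cycling and non-cycling FSC was not compared, so its part in these values was not tested. Of 58 tested genes of the folliculostellate list, 26 fell and 1 rose (*Vim*) in FSC (median -0.66) and 31 were not called, where 5.42% of all genes fell. *S100b*, a calcium-binding protein and part of the rule for this identity, was at 634 and 693 CPM in the female lanes and 561 and 778 in the male lanes of cycling FSC, against 1242, 1408, 1137 and 1175 in non-cycling FSC, with no overlap between states (-0.98 ± 0.14, edgeR adjusted p = 5.45e-20). *Sox9*, a factor of pituitary stem cells, was at 67.2 and 148 CPM in the female lanes and 113 and 113 in the male lanes of cycling FSC, against 218, 156, 205 and 183 in non-cycling FSC and fell (-0.87 ± 0.23, edgeR adjusted p = 1.17e-06, and -0.81 with an adjusted p of 0.00372 with library size alone). *Sox2* was at 106 to 205 CPM over the 4 lanes of cycling FSC and 192 to 215 in non-cycling FSC and was not called. *Hes1*, a target of Notch signalling, was at 249.6 and 318 CPM in the female lanes and 466 and 123 in the male lanes of cycling FSC, against 880.4, 821, 604 and 569 in non-cycling FSC and fell in FSC (-1.32 ± 0.16, edgeR adjusted p = 2.24e-22). *Igfbp5*, which encodes a binding protein of IGF, was at 1277 and 454 CPM in the female lanes and 1254 and 666 in the male lanes of cycling FSC, against 4168, 4069, 4195 and 4482 in non-cycling FSC (-2.32 ± 0.23, edgeR adjusted p = 1.52e-08). *Cldn4* had 0 UMIs in cycling FSC and 279 in non-cycling FSC, at 15.0 CPM. In S, by contrast, the junction gene *Cldn3* rose (70.2 to 147 CPM over the 4 lanes of cycling S and 20.5 to 29.7 in non-cycling S, 1.88 ± 0.26, edgeR adjusted p = 3.92e-09) and the keratin gene *Krt18* fell on 9 UMIs (-2.30 ± 0.37, edgeR adjusted p = 5.56e-10).

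In S and FSC ribosomal protein genes were the list with the most genes called lower. Of 72, 30 fell in S, 57 in FSC and 2 in L, and none rose, where 2.32%, 5.42% and 0.811% of all genes tested fell. In L the count depended on the scaling, since with TMM alone 60 fell in L, 55 in S and 69 in FSC, and L has 2 lanes. Together they made up 13.4% and 12.9% in the female lanes and 15.6% and 15.8% in the male lanes of UMIs in cycling FSC and 20.4% and 20.4% in the female lanes and 20.5% and 20.4% in the male lanes in non-cycling FSC. *Rpl10* was at 1325 and 1136 CPM in the female lanes and 1956 and 1567 in the male lanes of cycling FSC, against 3282, 3196, 3067 and 3115 in non-cycling FSC (-1.17 ± 0.12, edgeR adjusted p = 7.46e-37). The median log2 fold change of the list was -0.27 in S, -0.31 in L and -0.60 in FSC. Transcripts of the mitochondrial genome fell in 4 of 15 genes in S, 1 in L and 9 in FSC. Of the nuclear genes of oxidative phosphorylation, 4 of 73 were higher and 1 lower in the mean contrast, where 9.38% of all genes rose and 6.16% fell. With TMM alone 4 were higher and 36 lower, so the count of lower genes depended on the scaling. *Ndufa12*, of complex I, rose in all 3 identities (1.3 ± 0.14 in S).

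Glycolysis genes moved both ways. In FSC 2 of 15 rose (*Gapdh* and *Pgk1*) and 7 fell, where 7.04% of all genes tested rose and 5.42% fell. The aldolase genes *Aldoa* and *Aldoc* were at 182 and 22.7 CPM in the female lanes and 122 and 123 in the male lanes of cycling FSC, against 416, 456, 503 and 504 in non-cycling FSC, and 90.9 to 307 CPM over the 4 lanes of cycling FSC and 785 to 967 in non-cycling FSC. They fell (-2.09 ± 0.19, edgeR adjusted p = 3.03e-37, and -2.09 for *Aldoc*), whereas *Pgk1*, which acts later in the pathway, rose in S (224 to 459 CPM over the 4 lanes of cycling S and 128 to 152 in non-cycling S, 1.25 ± 0.16, edgeR adjusted p = 2.37e-09) and in FSC (1.13). Of 22 cholesterol genes, 3 rose (*Idi1*, *Fdft1* and *Tmem97*) and 1 fell (*Pmvk*) in the mean contrast. These counts are near the shares over all genes tested, of which 9.38% rose and 6.16% fell. *Fdft1*, of squalene synthesis, rose in L and FSC (2.59 and 1.98).

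Counts of signalling genes are set beside those of all genes tested. Of the latter, 7.04% rose and 2.32% fell in S, 4.33% and 0.811% in L, and 7.04% and 5.42% in FSC. Of 28 genes of Notch, Hippo and Wnt signalling, 1 rose and 3 fell in FSC, 2 rose in S (*Sox4* and *Id1*) and none was called in L. *Id1*, a target of BMP signalling, rose in the mean contrast (2.63 ± 0.49, edgeR adjusted p = 3.99e-05), a call not made after thinning. Of 32 genes of growth factors, their receptors and growth control 2 rose in S, the receptor gene Kit (3.82 ± 1.13, on 5 cycling UMIs in 2 of 4 lanes) and *Cdkn1c* (2.04 ± 0.41), of which *Cdkn1c* also rose in the mean contrast. Kit and *Sox4* were named after their values were seen. None was called in L, and none rose and 4 fell in FSC, all but *Ntrk2* binding proteins of IGF (*Igfbp3*, *Igfbp5* and *Igfbp7*). Of 20 p53 targets 1 rose (*Cdkn1a*) and 3 fell in FSC (*Gadd45b*, *Gadd45g* and *Ddit4*). Of 10 tested homeodomain genes of the pituitary, 1 rose in S (*Six6*) and 1 fell in FSC. Immediate early and stress genes, which respond to tissue dissociation among other stimuli, were lower in 8 of 34 cases in FSC, 2 in S (*Jun* and *Nr4a2*) and 2 in L (*Egr1* and *Dnajb1*), and none rose. *Klf4* in FSC was at 125 to 221 CPM over the 4 lanes of cycling FSC and 291 to 358 in non-cycling FSC (-0.95 ± 0.19, edgeR adjusted p = 1.77e-10). The list made up 4.64% and 2.85% in the female lanes and 3.73% and 2.55% in the male lanes of UMIs in cycling FSC, and 5.24% and 4.93% in the female lanes and 4.03% and 3.85% in the male lanes in non-cycling FSC, so that it was lower in the cycling cells of each lane. In S its share was higher in the cycling cells of female lane 2 (0.664% against 0.443%) and lower in those of the other lanes. *Gadd45b*, a p53 and stress gene, was at 9.596 and 11.9 CPM in the female lanes of cycling L against 42.3 and 49.5 in non-cycling L (-2.30 ± 0.49, edgeR adjusted p = 5.13e-06, on 6 cycling UMIs in these lanes).

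Among genes outside all lists, those with the lowest adjusted p included, upward, *Ube2t*, of DNA crosslink repair (8.14 in the mean contrast), *Hn1* (2.74), *H1fx*, a linker histone (4.11) and *Tcf19* (4.05). Downward they included *Sh3bgr* (-1.70), *Scp2*, a sterol carrier (-1.07), *Fis1*, of mitochondrial fission (-0.95), *Dapl1* (-0.87), *Rabac1* (-0.82), *Itm2b* (-0.61), *Cd81* (-0.77), *Eef2*, the elongation factor of translation (-0.64) and *Gabarap*, of autophagosomes (-0.63). Of these *Cd81*, *Gabarap* and *Itm2b* fell in each of S, L and FSC.

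**Figure D4:**
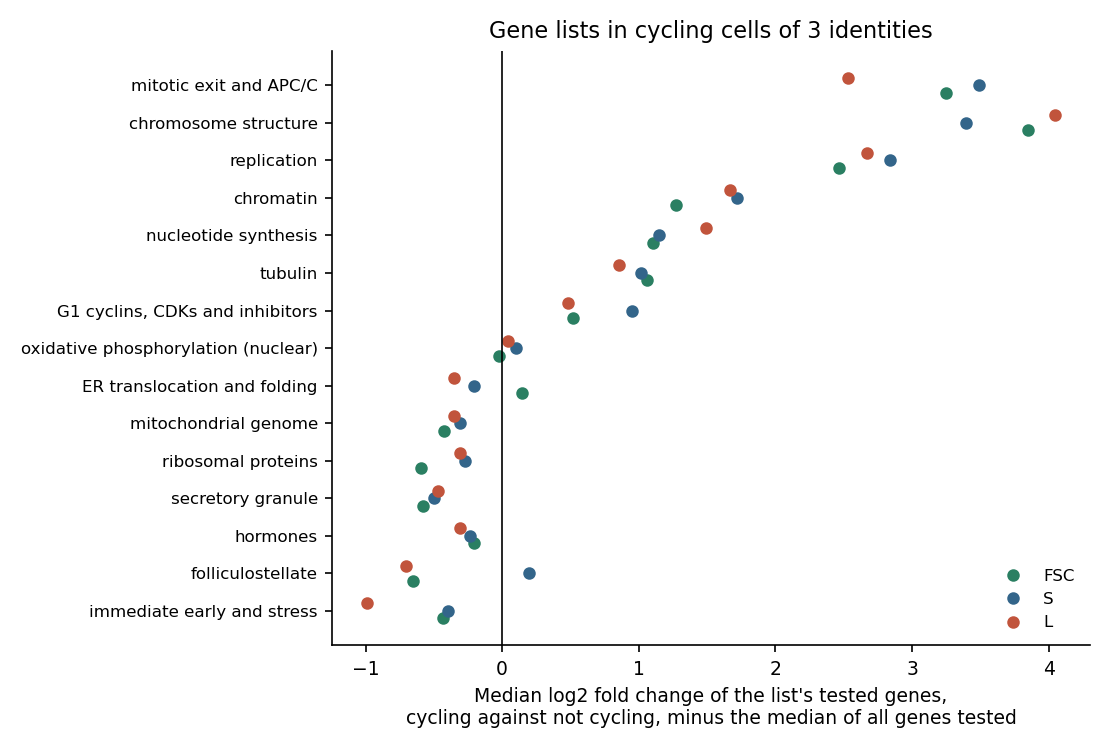
Median log2 fold change of 15 gene lists, cycling over non-cycling cells, relative to the median of all genes tested, in S, L and FSC. Mitotic exit, chromosome structure and replication lie above 2 in the 3 identities, and ribosomal proteins and the folliculostellate list in FSC at -0.60 and -0.66.

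The effect itself was compared between the hormone cells (mean of S and L) and FSC. It differed in 103 genes, 60 with a higher effect in S and L (0.507% of those tested) and 43 with a higher effect in FSC (0.363%). The split depended on the scaling, since totals without the hormone genes, which are not among the 3 scalings, gave 72 and 137 against 175 and 56 with TMM. Without female lane 1 TMM called 68 genes and without female lane 2 78, against 231 with all lanes. *Ptn*, which encodes the secreted factor pleiotrophin, was at 81.0 and 30.3 CPM in the female lanes and 95.0 and 91.0 in the male lanes of cycling S, against 12.9, 12.95, 12.04 and 8.27 in non-cycling S. In FSC it was at 1001 to 1555 CPM over the 4 lanes of cycling FSC and 957 to 1548 in non-cycling FSC, so that the difference in effect was 2.36 ± 0.22, edgeR adjusted p = 2.37e-23. *Dbi*, of acyl-CoA binding, rose in S and L from levels below those of FSC (351 to 658 CPM over the 4 lanes of cycling S and 91.8 to 125 in non-cycling S) and was at 386 to 645 CPM over the 4 lanes of cycling FSC and 409.7 to 448 in non-cycling FSC, and the difference was 1.91 ± 0.19, edgeR adjusted p = 1.88e-20. *Tagln2* and *S100a10* had the same form, with differences of 2.51 ± 0.20, edgeR adjusted p = 6.29e-32, and 1.54 ± 0.19, edgeR adjusted p = 2.18e-13. *Cst3*, which encodes cystatin C, fell by 1.90 in FSC and 0.67 in L and was not called in S, a difference of 1.46 ± 0.17, edgeR adjusted p = 3.33e-16. *Ptn*, *Dbi*, *Tagln2* and *S100a10* were each more abundant in non-cycling FSC than in non-cycling S in all 4 lanes. Of the 58 genes of the folliculostellate list, 4 rose and 2 fell in S (median 0.20), and 1 rose and 1 fell in L (median -0.70). Over all genes tested, 7.04% rose and 2.32% fell in S, and 4.33% rose and 0.811% fell in L. The part of FSC transcripts in cycling S and L was not tested.

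**Figure D5:**
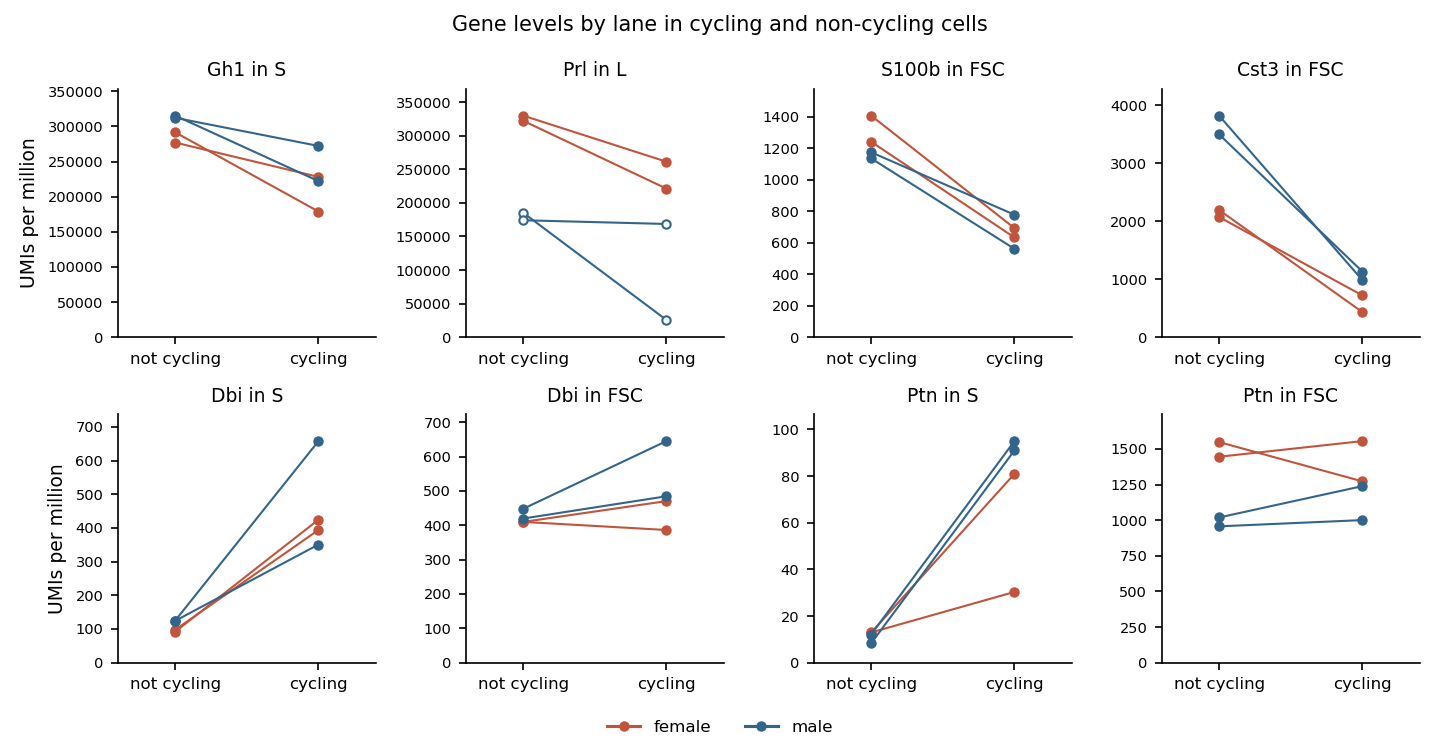
CPM (linear axes from 0) in each lane for non-cycling and cycling cells, for *Gh1* in S, *Prl* in L, *S100b* and *Cst3* in FSC, and *Dbi* and *Ptn* in S and FSC, coloured by sex. Lines join the states of 1 lane, and open circles are the male lanes of L with 2 and 1 cycling cells, which were not tested.

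Of the genes with the higher effect in FSC, *Ccng1*, a p53 target, was at 144 to 204 CPM over the 4 lanes of cycling FSC and 87.6 to 92.4 in non-cycling FSC. It fell in S (36.5 to 81.0 CPM over the 4 lanes of cycling S and 108 to 115 in non-cycling S) and in L, and the difference was -2.0 ± 0.28, edgeR adjusted p = 1.48e-09. *Thy1*, a surface glycoprotein, was at 28.8 and 34.1 CPM in the female lanes and 86.0 and 20.5 in the male lanes of cycling FSC, against 4.77, 2.27, 9.14 and 8.75 in non-cycling FSC on 27 cycling UMIs, and at 206 against 200.1 in S, a difference of -2.79 ± 0.41, edgeR adjusted p = 2.33e-08. Both were not called once cells were thinned to 4000 UMIs (adjusted p = 0.14 and 0.33). *Stmn1* rose in all 3 identities and further in FSC (-0.98 ± 0.15, edgeR adjusted p = 3.00e-07), with non-cycling levels of 480.3 in S and 218 in FSC. This was not called with all cells kept (adjusted p = 0.40). The mitotic genes *Kif22* and *Cit* were present in non-cycling S (60.3 and 79.7 CPM) and nearly absent from non-cycling FSC (3.34 and 6.90), and their effects differed by -4.34 and -3.15.

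Between S and L the effect differed in 6 genes, all higher in S (0.0507% of those tested, and 0% lower). With library size alone 12 were higher and 4 lower. At an unadjusted p under 0.05 edgeR gave 501 genes higher and 232 lower, and DESeq2 336 and 134, of which DESeq2 called 9 and 0 after adjustment. *Hist1h2bh*, a replication-dependent histone gene, was at 362 to 546 CPM over the 4 lanes of cycling S and 179 to 215 in non-cycling S and rose in S, and was at 125 and 87.4 CPM in the female lanes of cycling L against 244 and 201 in non-cycling L and fell in L, a difference of 2.44 ± 0.28, edgeR adjusted p = 6.75e-15. It also fell in FSC (-1.04). The primer of the method targets the poly(A) tail, so histone transcripts without such a tail are not its target. The others named were *Olfm1* (1.33 ± 0.26, edgeR adjusted p = 0.000213), *Six6*, a homeobox gene (1.34 ± 0.28, edgeR adjusted p = 0.000484), *Atf4*, of the amino acid response (1.49 ± 0.34, edgeR adjusted p = 0.00347), and *Dynll1*, a dynein light chain (0.98 ± 0.22, edgeR adjusted p = 0.00247). These 4 were not called after thinning or without female lane 1, where the lowest adjusted p of edgeR was 0.56 and L has only 1 lane left.

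Markers of other cell types were read in the same lanes as the tests, which for L are the female lanes. The leukocyte list was at 28.8, 45.4, 272 and 20.5 CPM in the lanes of cycling FSC and 55.5, 144, 63.0 and 56.2 in those of non-cycling FSC, and was above its non-cycling value only in male lane 1. Over all lanes *Cd74* gave 44 of the 69 UMIs of the list in cycling FSC, and 3 of the 10 genes were at 0. The same list was at 29.2 to 48.5 in cycling S against 37.2 to 48.0, and at 38.4 and 31.8 in cycling L against 32.4 and 46.2. The erythrocyte list, led by *Hba1*, was at 70.0 to 152 CPM in the lanes of cycling S against 112 to 165 in non-cycling S, 192 and 115 in the female lanes of cycling L against 144 and 174, and 79.5 to 133 in cycling FSC against 111 to 154. Endothelial markers were at 0 to 7.0 CPM in the lanes of cycling S against 6.15 to 10.1 in non-cycling S, 3.20 and 0 in the female lanes of cycling L against 3.29 and 3.8, and 0 to 9.599 in cycling FSC against 4.77 to 8.54, and over all lanes 5, 6 and 5 of 7 were at 0 in cycling S, L and FSC. Pericyte markers were at 12.1 to 29.2 CPM in the lanes of cycling S against 35.8 to 57.7 in non-cycling S, 0 and 3.97 in the female lanes of cycling L against 17.0 and 9.24, and 10.2 to 22.7 in cycling FSC against 20.9 to 31.7, with *Dcn* the leading gene in S and L. They were lower in the cycling cells in each lane tested. The melanotroph list, almost wholly *Pomc*, was at 297 to 434 CPM in the lanes of cycling S against 388 to 490.4 in non-cycling S, 317 and 385 in the female lanes of cycling L against 370.1 and 379.9, and 193 to 398 in cycling FSC against 314 to 459, and the corticotroph list, led by the same gene, at 334 to 539 CPM in the lanes of cycling S against 377 to 489.7 in non-cycling S, 326 and 389 in the female lanes of cycling L against 369 and 379, and 193 to 412 in cycling FSC against 314 to 461. In FSC both lists were lower in the cycling cells of all 4 lanes. The gonadotroph list, mostly *Lhb*, was at 140.3, 146, 36.5 and 28.0 in the lanes of cycling S against 150.3, 148, 50.1 and 49.6, lower in each lane. It was at 147 and 218 in cycling L against 187 and 139 and at 96.0, 159, 45.3 and 30.7 in cycling FSC against 117, 121, 44.9 and 54.8, with lanes in both directions. The thyrotroph list, mostly *Tshb*, was at 16.2 to 109.6 CPM in the lanes of cycling S against 32.8 to 83.8 in non-cycling S, 28.8 and 67.5 in the female lanes of cycling L against 37.3 and 21.7, and 0 to 71.7 in cycling FSC against 7.54 to 57.8. Posterior pituitary markers had 0 UMIs in cycling L and FSC and 2 in S. The part of these transcripts in the gene results was not tested.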

How the data were processed

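The authors counted UMIs per gene and cell with Cell Ranger (2.1) against an extended NCBI annotation of the rat, equalized reads between lanes and deposited 1 table of raw counts of 30058 genes and 7861 cells. Rows that share a symbol were summed, giving 29509 symbols. The sex of a lane was taken from the total number of cells of each sex in the study's text, since the labels do not give it, and the sex-linked genes *Eif2s3y* (0 and 1 UMIs in female lanes, 2038 and 2100 in male lanes) and *LOC100911498* (2925 and 2967, and 7 and 10) divided the lanes in the same way. Depth per lane is given above, and exact intervals are Clopper-Pearson.

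Members, gene lists and comparisons were chosen with earlier results of these data known. Identities followed the study's rules (Otsu thresholds per gene and sex, doublets from 30% synthetic doublets in 10 repeats at adjusted p under 0.01, mitochondrial outliers over 2 SD, depth outliers in the extreme 1.5%). These steps were rebuilt, so shares may differ from the study's. Of the cycling cells, 9 were doublets, 4 mitochondrial and 29 depth outliers, and 128 passed with a single identity. All 175 entered the shares, and the tests took only cells that passed. The study's own rule (at least 14 of 39 genes), rebuilt here and applied to all 7861 cells, gave 138 cells, all among the 175. The study applied it after its own quality control, so 138 is not the study's count.

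UMI sums per lane, identity and state (20 sums) were tested with edgeR 4.0.16 (TMM, filterByExpr with a minimum count of 10, lanes blocked within identity, 7 residual degrees of freedom, Benjamini-Hochberg adjustment) in R 4.3.3, with DESeq2 1.42.0 as an alternative. The same fit was also run on simulated data, made from the non-cycling sums and the dispersion of the real fit. Its outcome is not given here. Genes named are the rule genes, hormones and a fixed set of lineage and cycle genes, up to 4 called genes of each list with the largest mean change, up to 10 in each direction outside the lists with the lowest adjusted p, and up to 5 in each direction of a difference between identities. Classes with few cells (Le, EC, C) were not tested for genes. The result of 1 gene is not reported here.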

Additional observations from a re-analysis of the deposited data

Results flagged for a closer look

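The effect of the cycling state differed between identities, by a test of the difference itself, in 103 genes for S and L against FSC and in 6 genes for S against L. For S and L against FSC the named genes had differences of -4.34 (*Kif22*), -2.0 (*Ccng1*), -3.15 (*Cit*), 1.91 (*Dbi*), 2.51 (*Tagln2*), 1.54 (*S100a10*), 1.46 (*Cst3*), 2.36 (*Ptn*), -0.98 (*Stmn1*) and -2.79 (*Thy1*) on the log2 scale, a positive value meaning a higher effect in S and L. For S against L they were 0.98 (*Dynll1*), 2.44 (*Hist1h2bh*), 1.33 (*Olfm1*), 1.34 (*Six6*) and 1.49 (*Atf4*), a positive value meaning a higher effect in S, with L represented by the female lanes only.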

How the results depend on the processing

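Counts of called genes moved with the processing. With TMM alone edgeR called 3544 (mean), 1848 (S), 1412 (L), 2657 (FSC), 231 (S and L against FSC) and 15 (S against L) genes outside the rule. The counts were 1641 (mean), 777 (S), 443 (L), 1338 (FSC), 35 (S and L against FSC) and 3 (S against L) after thinning each cell, 1835 (mean), 838 (S), 541 (L), 1307 (FSC), 76 (S and L against FSC) and 8 (S against L) at an adjusted p under 0.001, and 1840 (mean), 1109 (S), 609 (L), 1476 (FSC), 103 (S and L against FSC) and 6 (S against L) when all 3 scalings were asked for. DESeq2 gave 836 in L, 1702 in FSC, 113 and 9 in the last 2 comparisons, 1 sum per sex gave 99 for S and L against FSC, all cells with 1 identity gave 9 for S against L, and the female lanes alone gave 902 in S and 1584 in FSC. Leaving out each lane in turn gave 2299 to 3274 (mean), 1304 to 1537 (S), 365 to 1343 (L, 365 without female lane 1 and 665 without female lane 2), 1882 to 2145 (FSC), 68 to 205 (68 and 78 without female lanes 1 and 2) and 3 to 18 (3 without female lane 1). A lane left alone was then assumed to vary like the others. Higher and lower calls split with the scaling as 902 and 946 with TMM, 1287 and 312 with library size, 934 and 423 with DESeq2 and 759 and 1712 with totals without the hormone genes (S), 625 and 787 with TMM, 1084 and 122 with library size, 516 and 320 with DESeq2 and 609 and 868 with totals without the hormone genes (L), 872 and 1785 with TMM, 1417 and 767 with library size, 937 and 765 with DESeq2 and 1004 and 1248 with totals without the hormone genes (FSC), 175 and 56 with TMM, 182 and 59 with library size, 62 and 51 with DESeq2 and 72 and 137 with totals without the hormone genes (S and L against FSC), 15 and 0 with TMM, 12 and 4 with library size, 9 and 0 with DESeq2 and 12 and 3 with totals without the hormone genes (S against L). The demand of all 3 scalings and the female lanes alone were chosen after seeing the data.

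The share in S was 1.55% by the study's 39-gene rule, against 2.18%. The share in L without each lane was 4.28 to 9.23%, the lowest without female lane 1. Of 129 named results, 84 kept their direction and side of the threshold in every alternative that gave them a value and 2 reversed at least once. These were *Lhb* (mean, 0.04 as reported, -0.28 after thinning, and -0.12 to 0.33 without each lane) and *Pou1f1* (mean, 0.58 with all cells of 1 identity), neither called in the reported setting. After thinning 6 of the 129 had no value, with 1 sum per sex and with all cells of 1 identity 1 each, and separate fits per identity gave 4 values. The cause was not tested. The cycling and non-cycling sums were paired by lane in the fit reported. No paired analysis was possible because, between the sexes, the lanes hold separate pools of different animals. Depth limits genes with few cycling UMIs, and sums of 8 to 19 cells (2 lanes in L) limit all values.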
